A study of Mus musculus with 20 samples.

Results

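Ion channel genes were followed in hindlimb muscle of mice labelled either vehicle or muscle knockout of the clock factor BMAL1, with and without treadmill training. Rows of the gene table were taken by symbol: potassium channels and their auxiliary subunits (Kcn), sodium channels (Scn), calcium channel pore, auxiliary and gamma subunits (Cacna, Cacnb, Cacng) and the CLC chloride channels and exchangers (Clcn). Of 21844 rows, 110 matched, and 64 of these reached at least 1 CPM (a gene's share of its library's counts, scaled to a common total) in at least 5 of 20 libraries. These 64 genes are 35 of 71 Kcn rows, 14 of 21 Cacn rows, 8 of 11 Scn rows and 7 of 7 Clcn rows, and 46 matching rows stayed below the threshold. Just inside it were Cacng4 and Kcng1, with 5 libraries each, and Kcnc2, with 6. Just outside were Kcnh2, Kcnk1 and Scn1a, with 4 libraries each. All but 1 of the 64 are protein coding. The exception, Kcnq1ot1, is an antisense noncoding RNA that matches by its prefix only.

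All mice carried Cre+:iMSBmal1 fl/fl, a floxed Bmal1 gene with an inducible, muscle-specific Cre recombinase, per the labels. Such a Cre is designed to leave the gene intact in nonmuscle cells of the tissue, and its promoter and inducer are not given in the sources used here. The 4 groups of 5 libraries were vehicle without exercise (vehicle sedentary), iMSBmal1KO without exercise (knockout sedentary), vehicle with exercise training (vehicle trained) and iMSBmal1KO with exercise training (knockout trained). Training lasted 6 weeks. Muscle was taken 48 hours post per the sample labels and 47 hours after the last bout per the series design, and the muscle is named gastrocnemius in one place and tibialis anterior in another, so it is called hindlimb muscle here. Age and sex are not given in the sources used here, nor is it said whether each library is a separate animal, so that p-values measure the spread between these samples only.

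A muscle fibre fires when sodium channels in its surface membrane and transverse tubules open. Potassium channels and, in this tissue above all, the chloride channel ClC-1 bring the membrane back to rest and hold it there. The action potential in the tubules moves the voltage sensor of the calcium channel complex around Cacna1s, which opens the ryanodine receptor of the sarcoplasmic reticulum and starts contraction. BMAL1 and its partner CLOCK bind E-box motifs and drive genes with a daily rhythm, and in the heart some channel genes have been described as clock-driven.

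Totals of estimated counts per library lay between 10610333 and 19153527, so that 1 CPM stood for between 10.6 and 19.2 counts. Between knockout trained libraries 1 and 4, and 3 and 5, the variance was 1.76 to 2.38 times that of sampling noise. From low to high counts it changed by a factor of 1.25 and 0.87, against at least 2.31 in every other pair of libraries. Each of these pairs was counted as 1 sample, which leaves 18 samples and n = 3 in knockout trained, listed below as the pair 1 and 4, library 2, and the pair 3 and 5. Vehicle trained library 2, called library 2 where no group is named, stood far from its group: 3690 genes lay over 2-fold from the mean of the rest on log2(CPM + 1), against at most 476 in any other sample. The targeted gene, Arntl (Bmal1), showed no loss under the knockout label: it lay at 10.96 to 18.87 CPM in knockout sedentary and at 5.68 to 7.93 CPM in vehicle sedentary samples (exact permutation test of log2(CPM + 1), two-sided, p = 0.0079). In trained muscle it lay at 8.04 to 16.07 CPM in knockout and at 6.32 to 132.25 CPM in vehicle samples. With library 2, which held the top value, the groups overlapped (exact permutation test, two-sided, p = 0.7857). Without that library the vehicle samples lay at 6.32 to 6.68 CPM, below all knockout samples (exact permutation test, two-sided, p = 0.0571). With 3 against 4 samples that is the lowest p this test can give, so it cannot decide whether the trained groups differ. A gene-level count does not show whether the floxed part was lost, so directions below are those of the labels, and "knockout" means the libraries so labelled. The defining markers of muscle fibres were present in every group, with a summed level of 8 genes of 68583 to 77326 CPM in vehicle sedentary, 61166 to 75798 CPM in knockout sedentary, 47496 to 75031 CPM in vehicle trained and 66193 to 79837 CPM in knockout trained samples. In whole tissue such as this, fewer cells of a type and less RNA per cell cannot be told apart.

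The most abundant channel genes per length were those of the fibre's own excitation machinery. On the scale of CPM per kb of exon (GENCODE M21 gene models), averaged over all samples, Cacng1, the gamma subunit of the tubular calcium channel, stood first at 254. Among the next were Cacna1s, the tubular calcium channel itself, at 105 and the sodium channel subunit Scn4b at 86.8, which did not differ beyond their SD in vehicle sedentary muscle. Cacng6 stood at 69.5, the muscle sodium channel Scn4a at 55.9 and the chloride channel Clcn1 at 48.3 CPM per kb, and the last of these neighbours, Scn4a and Clcn1, did not differ beyond their SD either. Kcnj11 (33.7), Cacna2d1 (26.9) and Kcna7 (26.6 CPM per kb) were also among the leading 10, with neither neighbouring pair apart by more than its SD. The lowest was the potassium channel Kcnc2 at 0.0975 CPM per kb. Of the 63 neighbouring pairs in this order, 15 were apart by more than their SD in vehicle sedentary muscle and 48 were not. In vehicle sedentary muscle, 31 of the 64 genes averaged at least 10 CPM and 12 at least 100 CPM.

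**Figure D1:**
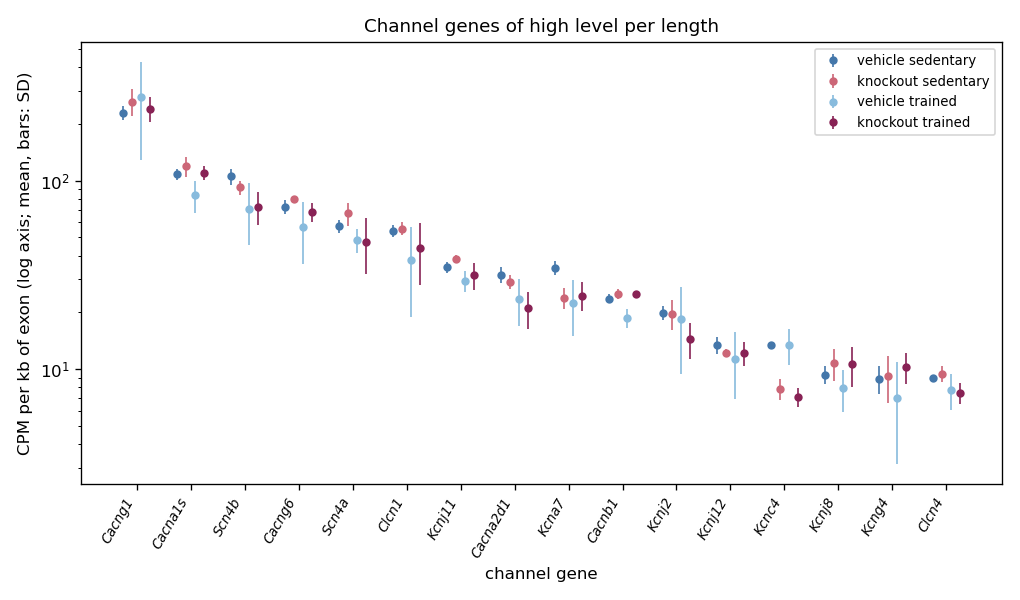
Level of 16 channel genes of high CPM per kb of exon, in falling order, on a log axis, as mean and SD of each of the 4 groups. Cacng1 and Cacna1s lie highest, and the mean of Kcnc4 is lower in both knockout groups than in both vehicle groups.

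In all, 6 channel genes differed between knockout and vehicle in at least 1 training state. In sedentary muscle 4 of 64 genes passed (6.25%), among them Kcnc4, Kcnab1 and Cacna2d4, which were lower in the knockout, against 2.33% of all 14361 genes tested (edgeR quasi-likelihood test, with p adjusted by Benjamini-Hochberg over every tested gene and a threshold of 0.05). Split by direction, 1 was higher, against 1.02% of all genes, and 3 were lower, against 1.31%. In trained muscle 4 of 64 passed as well, against 3.29% of all genes (1.99% higher and 1.3% lower). Among these, Kcnc4 and Kcnk5 were lower and Cacnb1 was higher in the knockout, so that Kcnc4 passed in both comparisons. At an unadjusted p under 0.05 there were 12 channel genes in sedentary muscle, against 9.82% of all genes, and 12 in trained muscle, against 17.2%. The median log2 change of the 64 genes was 0.01 in sedentary muscle, as over all genes, and 0.03 in trained muscle, against -0.03 over all genes. Of the 60 genes that did not pass in sedentary muscle, 52 had a fitted log2 change within 0.5 of no change, and in trained muscle 45 of 60 did.

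**Figure D2:**
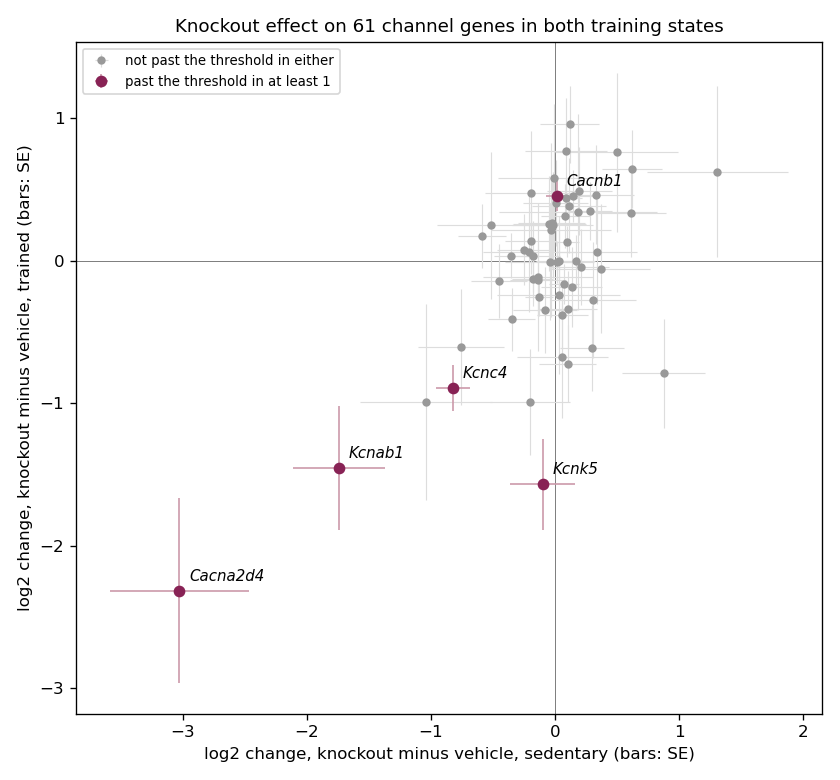
Log2 change of 61 of the 64 channel genes, knockout minus vehicle, in sedentary muscle (x axis) and trained muscle (y axis), with SE bars. The 5 shown genes past the threshold in at least 1 comparison are named. Cacna2d4 and Kcnab1 lie far to the lower left, Kcnc4 lies below and left of the centre, while Kcnk5 and Cacnb1 lie near 0 on the x axis.

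Kcnc4 (ENSMUSG00000027895, chromosome 3) encodes a fast-inactivating voltage-gated potassium channel of the Shaw family that skeletal muscle expresses. It was measured at 46.5, 52.1, 49.7, 47.8 and 49.2 CPM in vehicle sedentary samples and at 29.5, 32.9, 23.3, 30.5 and 27.8 CPM in knockout sedentary samples. With training the values were 44.5, 68.4, 43.6, 48.1 and 41.8 CPM in vehicle and 29.3, 23.7 and 24.9 CPM in knockout samples. Every knockout sample lay below every vehicle sample of the same training state, and the far library 2 held the highest value of all. The means were 49.1 ± 2.10 and 28.8 ± 3.61 CPM in sedentary muscle and 49.3 ± 10.9 and 26.0 ± 2.97 CPM in trained muscle (mean ± SD here and below, n = 5, or 3 in knockout trained). The log2 change was -0.82 with SE 0.14 in sedentary muscle (edgeR adjusted p = 0.0019) and -0.89 with SE 0.16 in trained muscle (adjusted p = 0.0041), which are 1.77-fold and 1.86-fold lower levels. With only the trained groups in the fit, the trained change of -0.90 did not pass (adjusted p = 0.2373).

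Kcnab1 (ENSMUSG00000027827, chromosome 3) encodes a cytoplasmic beta subunit that binds Shaker-type potassium channels and speeds their inactivation. Its level was 20.2, 14.1, 22.03, 15.6 and 14.48 CPM in vehicle sedentary against 3.16, 6.51, 6.26, 6.00 and 5.01 CPM in knockout sedentary samples, with no overlap. In trained muscle it was 18.4, 4.03, 12.9, 20.04 and 23.2 CPM in vehicle and 2.35, 7.49 and 6.47 CPM in knockout samples. Library 2 of the vehicle trained group alone fell among the knockout values. The log2 change was -1.74 with SE 0.37 in sedentary muscle (3.35-fold lower, edgeR adjusted p = 0.0117) and -1.46 with SE 0.43 in trained muscle (adjusted p = 0.078). Without library 2 the trained change was -1.70 with SE 0.32 (adjusted p = 0.0023).

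Kcnk5 (ENSMUSG00000023243, chromosome 14) encodes a background potassium channel that responds to extracellular pH. In sedentary muscle its level was 2.24, 3.53, 2.51, 4.00 and 1.65 CPM in vehicle and 3.16, 2.79, 3.05, 2.00 and 2.37 CPM in knockout samples, which overlap. In trained muscle it was 4.03, 6.14, 3.57, 4.61 and 3.44 CPM in vehicle and 0.867, 1.91 and 1.54 CPM in knockout samples, which do not. The log2 change was -0.10 with SE 0.26 in sedentary muscle (edgeR adjusted p = 0.9963) and -1.57 with SE 0.32 in trained muscle (2.97-fold lower, adjusted p = 0.0098). The difference between these 2 changes was -1.47 with SE 0.41 and did not pass as an interaction (edgeR adjusted p = 0.6046). The trained call was lost without the pair 1 and 4, which held the lowest value (-1.25, adjusted p = 0.0534), and with only the trained groups in the fit (-1.57, adjusted p = 0.2107).

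Cacna2d4 (ENSMUSG00000041460, chromosome 6) encodes an auxiliary alpha2-delta subunit of calcium channels, best known from the retina. It was low in muscle, at 12.4, 5.99, 8.72, 9.48 and 7.76 CPM in vehicle sedentary samples, and lower still at 0.949, 0.532, 1.49, 1.65 and 1.08 CPM in knockout sedentary samples. Trained vehicle samples held 8.34, 0.396, 10.1, 5.92 and 12.1 CPM and trained knockout samples 1.29, 2.45 and 0.751 CPM. As for Kcnab1, library 2 was the vehicle trained sample that did not lie above the knockout samples, and it was the lowest of all 18. The sedentary log2 change was -3.03 with SE 0.56 (8.16-fold lower, edgeR adjusted p = 0.0044), the largest among the 64 genes in size. In trained muscle it was -2.31 with SE 0.65 (adjusted p = 0.059), and without library 2 it was -2.64 with SE 0.38 (adjusted p = 0.000211). With limma-voom in place of edgeR, the sedentary change of -3.06 did not pass (adjusted p = 0.0691).

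Cacnb1 (ENSMUSG00000020882, chromosome 11) encodes the beta subunit that brings Cacna1s to the transverse tubules. Sedentary samples overlapped, with 105, 109.9, 100.3, 105 and 116 CPM in vehicle and 115, 122, 108, 115 and 105 CPM in knockout samples. In trained muscle the values were 90.1, 68.6, 89.95, 92.6 and 82.8 CPM in vehicle and 115, 111 and 112 CPM in knockout samples. The trained groups did not overlap, and the trained vehicle samples were also below all sedentary vehicle samples. The knockout minus vehicle log2 change was 0.01 with SE 0.09 in sedentary muscle (edgeR adjusted p = 0.9997) and 0.46 with SE 0.10 in trained muscle (1.37-fold, adjusted p = 0.0203), and the interaction of 0.44 with SE 0.14 did not pass (adjusted p = 0.6046). The trained call was lost without knockout trained library 2 (adjusted p = 0.0596), without the pair 3 and 5 (adjusted p = 0.124) and with only the trained groups in the fit (adjusted p = 0.4155).

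**Figure D3:**
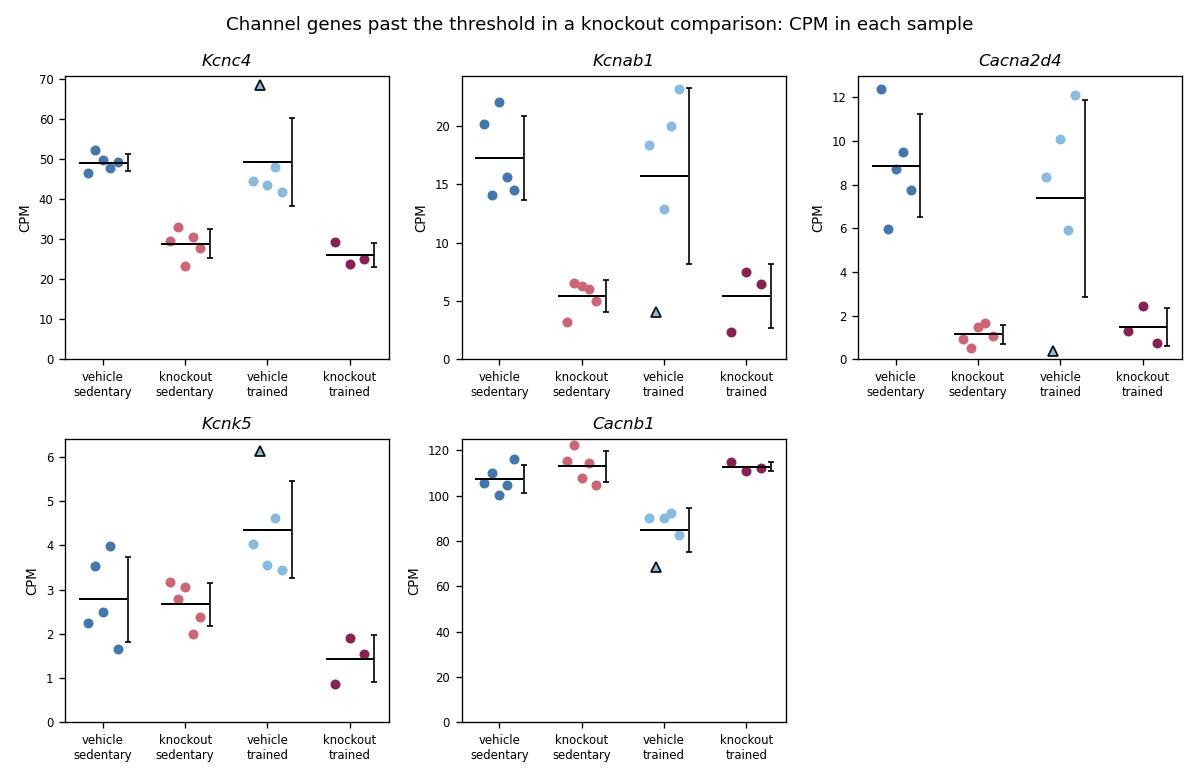
CPM in each sample for 5 channel genes past the threshold in a knockout comparison, by group. Points are samples, the triangle is vehicle trained library 2, the line is the group mean and the bar its SD. The triangle sits with the knockout samples for Kcnab1 and Cacna2d4 and above all other samples for Kcnc4.

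The start sites of 48 of the 64 genes were matched in the RefSeq promoter sequences (GRCm38.p6, 250 bases before to 50 after the start site). The E-box CACGTG, which reads the same on both strands, was found at 7 of the 48 genes (14.6%), against 11.6% of the 10291 tested genes with a promoter and 8.09% of all 27025 genes of that set. They were Kcnab1, Kcnk5, Kcnj2, Kcne4, Clcn4, Clcn6 and Clcn7, of which the first pair passed in a knockout comparison. The D-box core TTANGTAA, searched on both strands, was found at 1 gene, Kcnj15 (2.08%, against 1.86% of the tested genes and 2.72% of all). The motifs do not overlap each other. Because the changed genes Kcnab1 and Kcnk5 hold an E-box and Kcnc4, changed in both comparisons, holds none in this window, these sequences are shown, in the sense direction of each gene with the E-box in capitals. Among the other changed genes, Cacnb1 holds no E-box at its 2 start sites, and Cacna2d4 was not among the 48 matched genes. Whether the motif goes with a change was not tested. Kcnab1 has 3 start sites in this set, and 2 of them carry the motif, with its first base at -162 and -45, where -1 is the last base before the start site. The Kcnab1 windows lie at chr3:65108764-65109013 and chr3:65187853-65188102 on the plus strand, the Kcnc4 window at chr3:107458899-107459148 on the minus strand, and the Kcnk5 stretch, which follows the start site and has its motif from base 27 of the transcript, at chr14:20181739-20181768 on the minus strand.
Kcnab1 start site 2: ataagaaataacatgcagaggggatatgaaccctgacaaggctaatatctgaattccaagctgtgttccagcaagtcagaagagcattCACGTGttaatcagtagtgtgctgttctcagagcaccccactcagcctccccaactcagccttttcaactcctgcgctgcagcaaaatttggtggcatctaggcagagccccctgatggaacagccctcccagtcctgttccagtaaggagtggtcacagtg
Kcnab1 start site 3: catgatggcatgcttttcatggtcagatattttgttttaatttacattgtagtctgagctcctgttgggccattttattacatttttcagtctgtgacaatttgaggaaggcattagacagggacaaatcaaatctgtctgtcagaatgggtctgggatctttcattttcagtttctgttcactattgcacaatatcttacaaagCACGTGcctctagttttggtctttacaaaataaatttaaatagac
Kcnc4: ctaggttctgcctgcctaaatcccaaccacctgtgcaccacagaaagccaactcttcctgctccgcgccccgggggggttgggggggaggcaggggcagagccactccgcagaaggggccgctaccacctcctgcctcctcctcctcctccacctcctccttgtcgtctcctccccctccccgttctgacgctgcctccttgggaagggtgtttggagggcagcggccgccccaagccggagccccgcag
Kcnk5: gcagaggcggcaCACGTGtctgctggtgtg
The GC content of these 4 sequences was 50%, 35.6%, 68.0% and 66.7% in the order shown. A motif match is a description of the letters only, and no binding was measured here.

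Among the 9 channels of the fibre surface, Kcnc4 alone passed, in both knockout comparisons. The median log2 change of the 9 was -0.19 in sedentary and 0.14 in trained muscle, against 0.01 and -0.03 over all genes. Scn4a, the pore-forming sodium channel of adult muscle, was at 429, 429, 383, 357 and 424 CPM in vehicle sedentary against 437, 483, 382, 501 and 556 CPM in knockout sedentary samples. Trained vehicle samples held 256, 349, 369.7, 382 and 340.3 CPM and trained knockout samples 455, 241 and 307 CPM. The groups overlapped in both states, with log2 changes of 0.17 (SE 0.16, edgeR adjusted p = 0.9212) and 0.0017 (SE 0.18, adjusted p = 0.9975).

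Scn4b, an auxiliary sodium channel subunit of high level, averaged 525 ± 52.3 CPM in vehicle sedentary, 459 ± 39.7 CPM in knockout sedentary, 355 ± 129 CPM in vehicle trained and 363 ± 73.1 CPM in knockout trained muscle and passed in no comparison.

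Clcn1, the chloride channel that carries most of the resting conductance of the fibre and whose loss causes myotonia, was at 319.9, 282, 277, 274 and 317 CPM in vehicle sedentary against 325, 296, 264, 315 and 313 CPM in knockout sedentary samples. The trained values were 177, 37.5, 251.2, 282 and 279 CPM with vehicle and 334, 173 and 206 CPM with knockout. Levels overlapped in both states, and library 2 held the lowest. The log2 changes were -0.02 (SE 0.32) and 0.25 (SE 0.37), neither of which passed (edgeR adjusted p = 0.9997 and 0.7744), and the trained one was -0.01 (SE 0.17, adjusted p = 0.9781) without library 2.

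Inward rectifiers hold the resting potential or couple it to metabolism. Kcnj2 was at 108, 112, 119, 93.1 and 111 CPM in the vehicle sedentary group, 132, 121, 104, 92.3 and 87.3 CPM in knockout sedentary, 49.3, 176, 114, 71.1 and 88.6 CPM in vehicle trained and 94.1, 60.6 and 80.4 CPM in knockout trained samples. Kcnj12, a close relative of Kcnj2, was at 42.2, 37.3, 36.8, 31.4 and 36.8 CPM, 31.4, 32.3, 33.4, 36.0 and 34.6 CPM, 27.0, 12.6, 33.6, 41.7 and 41.0 CPM and 38.8, 31.3 and 29.8 CPM in the same order of groups. Kcnj11, the pore of the ATP-sensitive potassium channel, was at 131, 136, 132, 117 and 121 CPM, 138, 142, 135, 139 and 153 CPM, 99.1, 92.7, 106, 116 and 127 CPM and 137, 102 and 109 CPM. All 3 overlapped between knockout and vehicle in both training states. Their log2 changes lay between -0.19 and 0.10 in sedentary muscle and between -0.34 and 0.14 in trained muscle, and none passed.

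Kcna7, a Shaker-type potassium channel found mainly in muscle, and Kcnc1, a Shaw-type channel, had lower means in sedentary knockout than in sedentary vehicle muscle. Kcna7 was at 78.2, 85.3, 67.8, 71.3 and 75.0 CPM in vehicle sedentary against 47.2, 55.9, 48.9, 62.4 and 46.7 CPM in knockout sedentary samples, with no overlap, and its log2 change of -0.59 (SE 0.19) did not pass (edgeR adjusted p = 0.1704). Trained samples held 56.5, 21.1, 61.6, 53.3 and 51.5 CPM with vehicle and 63.7, 45.6 and 51.5 CPM with knockout, a log2 change of 0.18 (SE 0.22, adjusted p = 0.7252). Without library 2 the sedentary change of -0.58 (SE 0.11) passed (adjusted p = 0.0011), the trained change was 0.00056 (SE 0.13), and the interaction of 0.59 (SE 0.16) did not pass (adjusted p = 0.2428). Kcnc1 was at 111, 87.2, 92.6, 105 and 78.7 CPM in the vehicle sedentary group, 76.3, 71.2, 59.4, 83.2 and 69.4 CPM in knockout sedentary, 70.9, 29, 87.7, 76.3 and 86.7 CPM in vehicle trained and 90.5, 43.0 and 53.5 CPM in knockout trained samples. Its groups overlapped in both states, and its sedentary log2 change of -0.45 (SE 0.23) did not pass (adjusted p = 0.5539).

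**Figure D4:**
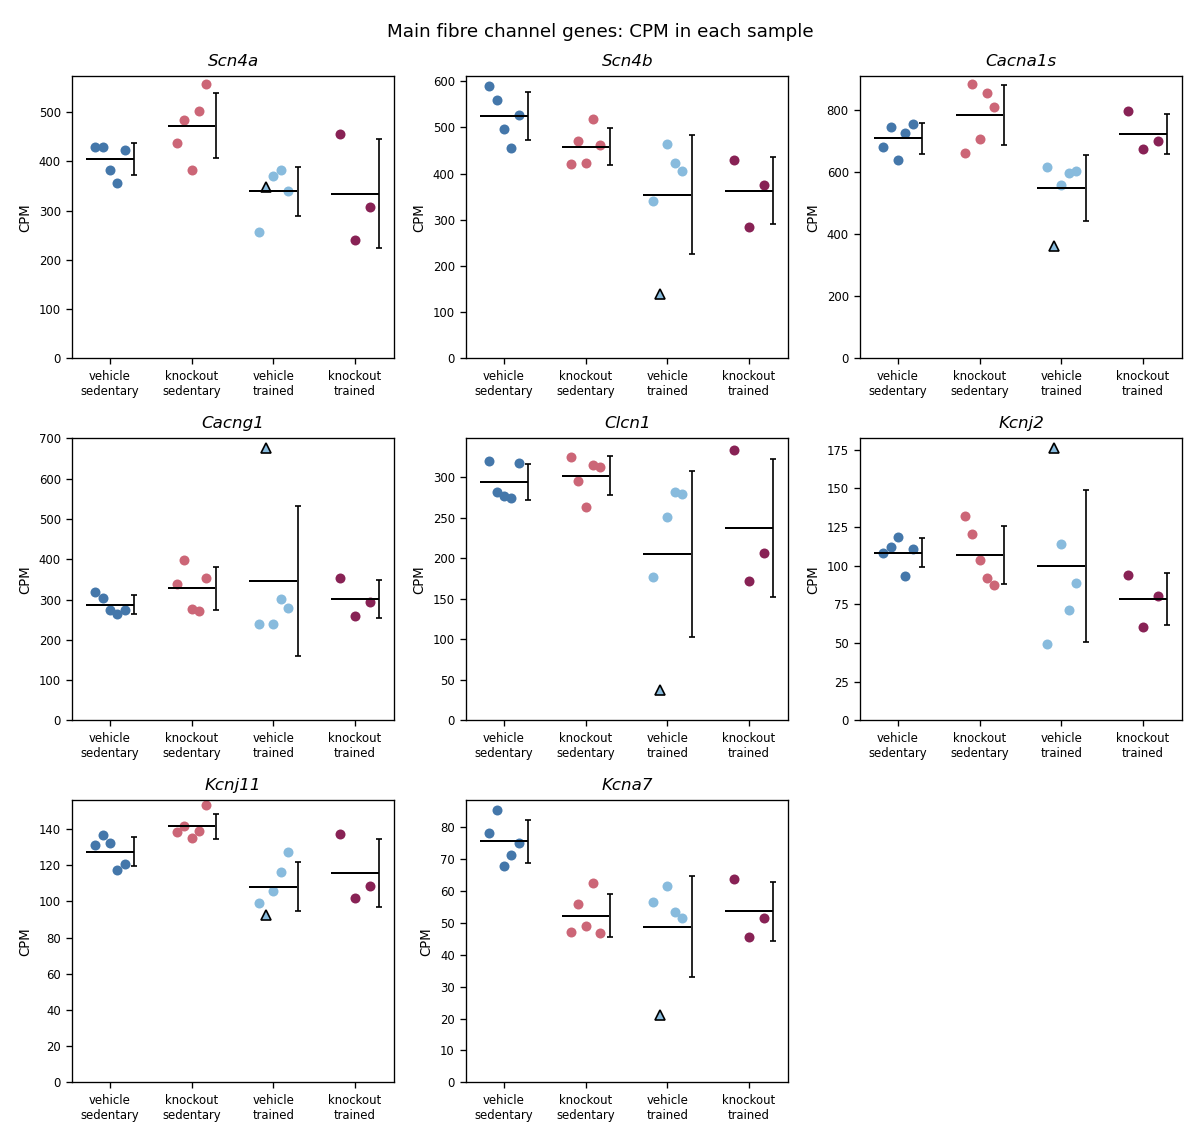
CPM in each sample for 8 main channel genes of the fibre, by group. Points are samples, the triangle is vehicle trained library 2, the line is the group mean and the bar its SD. Knockout sedentary samples lie below vehicle sedentary samples for Kcna7, and the triangle lies below the rest of its group for 5 of the 8 genes, above it for Cacng1 and Kcnj2 and among it for Scn4a.

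The calcium channel complex of the transverse tubules was present at high levels in all groups, and of its 5 genes Cacnb1 alone passed, in trained muscle. Cacna1s, the voltage sensor, was at 681, 746, 639, 725 and 754 CPM in vehicle sedentary against 662, 884, 707, 856 and 810.1 CPM in knockout sedentary samples. In trained muscle it was at 618, 361, 560.4, 598 and 604 CPM in vehicle and 796, 674 and 699.5 CPM in knockout samples, which did not overlap. The trained log2 change of 0.44 (SE 0.15) did not pass (edgeR adjusted p = 0.1134). Of its exonic bases, 19.98% are shared with an antisense gene, Gm37759, and as it is not given whether counting used strand, reads of the 2 cannot be told apart.

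Cacng1 and Cacng6 are gamma subunits, of which the first damps the channel's calcium current. Cacng1 was at 319.9, 303, 275, 264 and 274 CPM in the vehicle sedentary group, 338, 397, 277, 272 and 354 CPM in knockout sedentary, 238, 675, 239.6, 301 and 278 CPM in vehicle trained and 353, 259.6 and 293 CPM in knockout trained samples. Cacng6 was at 162, 143, 139, 128 and 145 CPM, 159, 163, 154, 152 and 162 CPM, 101, 45.8, 133, 142 and 138 CPM and 152, 123 and 129 CPM in that order. Cacna2d1, the main alpha2-delta subunit of muscle, was at 414, 356, 387, 363 and 448 CPM, 361, 369, 308, 385 and 385 CPM, 249, 169.9, 362, 346 and 333 CPM and 329, 223 and 232 CPM. Knockout and vehicle overlapped for all 3 in both training states, and library 2 was the highest sample for Cacng1 and the lowest for Cacng6 and Cacna2d1. The median log2 change of the 5 complex genes was 0.08 in sedentary and 0.32 in trained muscle.

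Leaving out vehicle trained library 2, which lies far from its group, raised the counts of both channel genes and all genes. In sedentary muscle 8 channel genes then passed, against 6.97% of all genes, with 1 higher (3.13% of all genes) and 7 lower (3.84%). They included those that passed with all samples, Kcna7 and the ether-a-go-go related potassium channel Kcnh7 (-0.75, SE 0.20, edgeR adjusted p = 0.0221). In trained muscle 8 passed, against 8.66% of all genes, with 3 higher (5.01% of all genes) and 5 lower (3.65%). They were the 4 that passed with all samples, Cacna2d4, Kcnab1, Kcnh7 (-0.86, SE 0.24, adjusted p = 0.0309) and the T-type calcium channel Cacna1h (0.94, SE 0.28, adjusted p = 0.0472). The genes that passed in both states were then 5, among them Cacna2d4, Kcnab1, Kcnc4 and Kcnh7. The sedentary groups do not contain library 2, which enters that comparison through the shared estimate of spread.

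No chloride channel or exchanger passed the test. Clcn3, Clcn4 and Clcn5 work in endosomes, Clcn6 in late endosomes and Clcn7 in lysosomes, and none of the 5 passed in any comparison, with median log2 changes of 0.01 in sedentary and -0.16 in trained muscle. Clcn3 averaged 102 ± 8.80 CPM in vehicle sedentary against 93.5 ± 6.29 CPM in knockout sedentary muscle, and Clcn7 averaged 27.3 ± 2.68 and 25.9 ± 1.89 CPM. Across all 7 Clcn genes the fitted log2 change lay between -0.18 and 0.07 in sedentary muscle. Across the 35 Kcn genes it lay between -1.74 and 0.88, but such a range widens with the number of genes, and no test compares the families.

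Channels of blood vessel walls were 5 of 6 listed genes (Kcnj8, Kcnma1, Kcna5, Cacna1c and Cacna1h). None passed with all samples, and their median log2 change was 0.15 in sedentary and 0.46 in trained muscle. Kcnj8, the pore of the vascular ATP-sensitive channel, averaged 23.8 ± 2.64 CPM in vehicle sedentary, 27.4 ± 5.24 CPM in knockout sedentary, 20.1 ± 4.96 CPM in vehicle trained and 27.0 ± 6.502 CPM in knockout trained muscle. Cacna1h lay at 1.01 to 1.78 CPM in vehicle trained and at 1.94 to 2.74 CPM in knockout trained samples, without overlap (log2 change 0.96, SE 0.27, edgeR adjusted p = 0.0591). The summed level of pericyte markers over 5 of 5 genes was 420 to 516.6 CPM in vehicle sedentary and 518.0 to 652 CPM in knockout sedentary samples, ranges that nearly met. In trained muscle it was 293 to 511 CPM with vehicle and 488 to 624 CPM with knockout, which overlap. Smooth muscle markers (6 of 6 genes) overlapped, at 112 to 137 CPM and 125 to 160 CPM in sedentary muscle. The pericyte marker Notch3 passed in trained muscle, and no marker of the other 9 cell types listed passed in a knockout comparison. The part of these cells in the result was not tested.

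Channels known from nerve and Schwann cells were 3 of 8 listed genes past the threshold, Scn7a, Kcna2 and Kcnab2, and none passed in a knockout comparison. Scn7a, a sodium-sensing relative of the sodium channels, averaged 32.7 ± 9.96 CPM in vehicle sedentary, 36.4 ± 9.99 CPM in knockout sedentary, 46.9 ± 12.5 CPM in vehicle trained and 27.5 ± 8.13 CPM in knockout trained muscle. The summed Schwann cell markers ranged from 31.1 to 109 CPM with vehicle and from 31.7 to 66.1 CPM with knockout in sedentary muscle, which overlap.

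Kcnn3, a small-conductance calcium-activated potassium channel, is known to reappear in muscle after loss of the nerve. It was at 5.34, 3.26, 3.65, 3.22 and 3.18 CPM in vehicle sedentary against 4.27, 4.19, 3.52, 6.17 and 4.06 CPM in knockout sedentary samples, and at 2.59, 1.19, 3.08, 3.07 and 2.71 CPM and 5.44, 2.98 and 2.06 CPM in the trained groups. Knockout and vehicle overlapped in both states (log2 changes of 0.20, SE 0.26, and 0.49, SE 0.31, edgeR adjusted p = 0.9787 and 0.4319). Of the channels described as clock-driven in the heart, Kcnh2 and Kcnip2 missed the level threshold and were not tested. Kcnh2 was at 0.851, 0.532, 0.783, 1.31 and 0.367 CPM in vehicle sedentary against 0.633, 0.731, 0.626, 0.782 and 0.610 CPM in knockout sedentary samples, and Kcnip2 at 0.387, 0.798, 0.418, 0.238 and 0.305 CPM and 0.105, 0.133, 0.235, 0.261 and 0 CPM. In vehicle trained and knockout trained samples Kcnh2 was at 0.719, 0, 0.984, 0.911 and 1.19 CPM and 0.859, 1.38 and 0.824 CPM, and Kcnip2 at 0.144, 0, 0.185, 0.228 and 0.198 CPM and 0.50, 0 and 0.0420 CPM.

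The lists above hold 28 of the 64 genes. Among the other 36, Cacna2d4, Kcnab1 and Kcnk5 passed as described, and Kcnh7 passed without library 2. The largest changes that did not pass in sedentary muscle were those of Cacng4 (1.31, SE 0.57, edgeR adjusted p = 0.4249) and Kcnj3 (-1.04, SE 0.53, adjusted p = 0.5791), both near the level threshold. Values of the knockout and vehicle groups did not overlap for 9 channel genes in sedentary muscle, against 9.4% of all genes, and for 7 in trained muscle, against 7.95%. Of the 64 genes, 22 share exonic bases with another gene in GENCODE M21, including Kcnab1 (2.34%), Cacnb1 (1.77%) and Clcn1 (8.20%), while Kcnc4, Cacna2d4 and Kcnk5 share none. Kcnj3 shares 31.08% with Gm26794 on the opposite strand, the largest share of the 64, so its reads may include those of that gene.

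Training for 6 weeks moved no channel gene past the threshold in vehicle or knockout muscle. In vehicle muscle 0 of 64 passed, as did 0.0% of all genes, with a smallest adjusted p of 0.2718 among the channel genes (edgeR). At an unadjusted p under 0.05 there were 14, against 15.2% of all genes, and limma-voom and DESeq2 called 0 channel genes. Over all genes limma-voom called 0 and DESeq2 15. The median log2 change of the channel genes was -0.19, against 0.03 over all genes, and -0.10 against -0.0028 without library 2. Trained samples lay below all sedentary samples for 5 genes, against 2.73% of all genes, among them Cacna1s, Cacnb1, Kcna7 and Kcnn3. Leaving out a sample cannot bring separate groups to overlap, so these 5 stay apart without library 2 by necessity. The count was then still 5, against 4.35% of all genes. The 5 log2 changes lay between -0.59 and -0.30.

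In knockout muscle training again gave 0 of 64 (0.0% of all genes), with a smallest adjusted p of 0.4376 (edgeR). Without vehicle trained library 2 it also gave 0, against 0.843% of all genes (0.696% higher and 0.146% lower), with a smallest adjusted p of 0.0554. At an unadjusted p under 0.05 there were 3, Kcnk5 and Kcnq5 among them, against 9.69% of all genes, and limma-voom and DESeq2 called 0 channel genes. Over all genes limma-voom called 0 and DESeq2 198. Kcnk5 had a log2 change of -0.76 (SE 0.32). Trained and sedentary knockout samples did not overlap for 6 channel genes, against 11.9% of all genes. Library totals as the scaling moved the median of all genes in this comparison by -0.14 and gave 11 channel genes the opposite sign.

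No channel gene showed a training response that differed between the genotypes past the threshold. The interaction gave 0 of 64 (0.0% of all genes; smallest adjusted p = 0.6046, edgeR), with 9 at an unadjusted p under 0.05, against 7.5% of all genes, and 0 by limma-voom and DESeq2. Over all genes, limma-voom called 0 and DESeq2 26 for the interaction. Without vehicle trained library 2 there were 7 channel genes at an unadjusted p under 0.05, against 11.4% of all genes. The 9 with all samples included Cacnb1, Kcnip3, Kcnk5, Kcna7, Cacna1h, Kcnk6 and Scn7a. Of these, Kcnk5 had log2 changes with training of 0.71 (SE 0.26) in vehicle and -0.76 (SE 0.32) in knockout muscle, and Cacnb1 of -0.30 (SE 0.09) and 0.14 (SE 0.10). The comparisons share their groups in pairs, so these values are not independent of the knockout changes above.

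Vehicle trained library 2 held extreme values for most of the channel genes. It lay below all 17 other samples for 36 of the 64 (56.2%, against 35.6% of all tested genes) and above them for 9 (14.1%, against 24.6%). It was over 2-fold lower than the rest of its group, on CPM + 1, for 17 (26.6%, against 16.4%) and over 2-fold higher for 4 (6.25%, against 9.63%). Kcng4, a silent subunit that modifies other potassium channel subunits, was at 1.19 CPM there and at 27.8 to 37.1 CPM in the rest of its group. Kcne4, a single-span potassium channel subunit, was at 7.13 CPM against 1.29 to 2.56 CPM. Among genes under the level threshold, Cacna1i, a T-type calcium channel, was at 9.97 CPM against 0.79 to 1.82 CPM. The knockout trained samples also differed among themselves: the pair 1 and 4 held the highest of the 3 values for 46 of 64 channel genes, against 54.5% of all tested genes. Knockout trained library 2 held it for 15, against 34.0% of all tested genes, and the pair 3 and 5 for 3, against 11.5%.

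**Figure D5:**
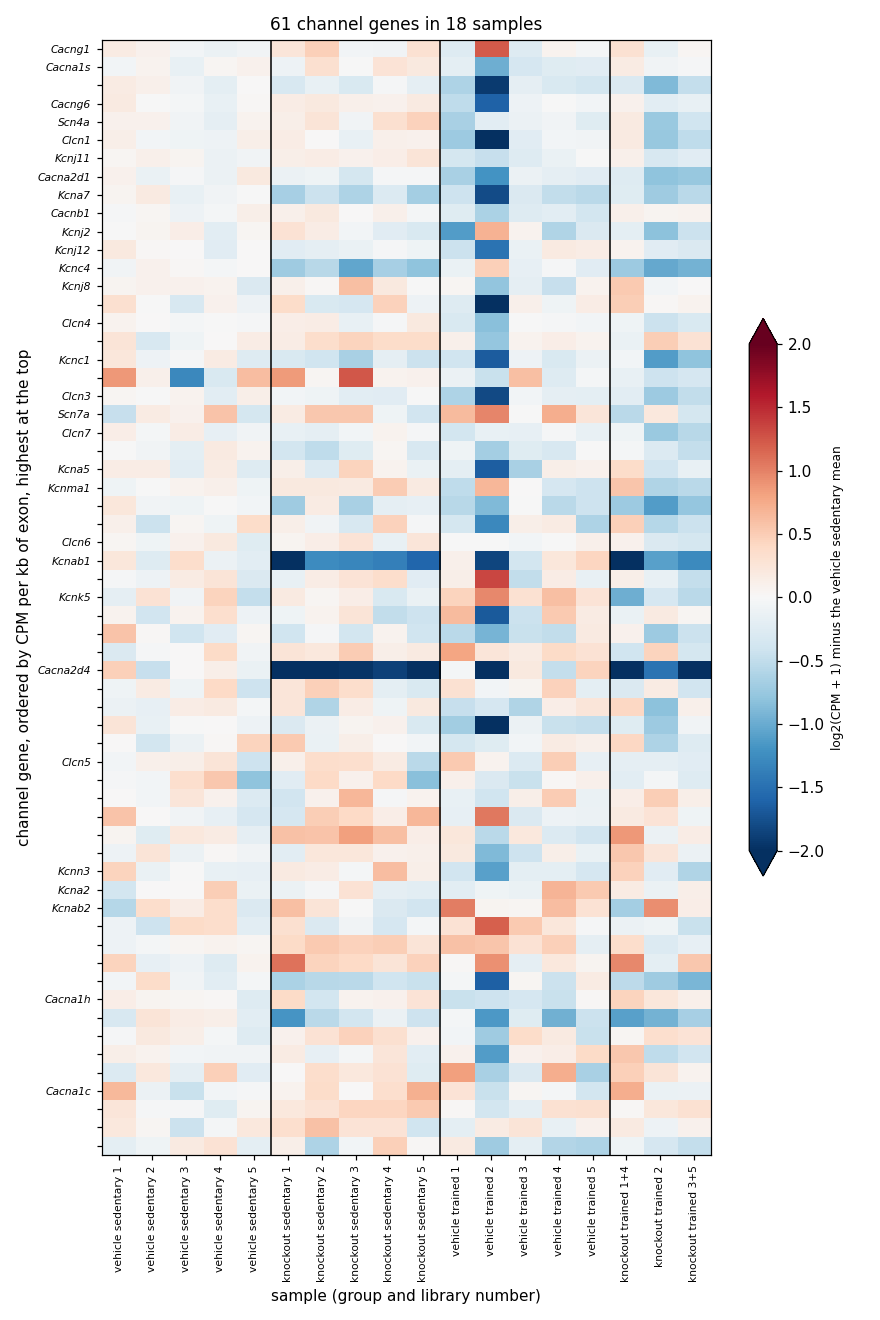
Log2(CPM + 1) of 61 of the 64 channel genes minus the vehicle sedentary mean, in 18 samples, with genes ordered by CPM per kb of exon and colours capped at 2 either way. Rows of genes past the threshold or in a role list are named. Vehicle trained library 2 is the darkest column, mostly low, and the rows of Cacna2d4, Kcnab1 and Kcnc4 are low through the knockout groups.

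Genes that work with these channels were counted from lists of known partners. The lists were chosen with earlier results of these data known, so the counts cannot show enrichment. The shares of all genes that passed were 1.02% higher and 1.31% lower in sedentary muscle, and 1.99% higher and 1.3% lower in trained muscle. Of 19 genes of excitation-contraction coupling, 4 were higher in sedentary knockout muscle (0 lower): the calcium buffer Casq2 (log2 change 1.46), Asph (0.44), whose locus also encodes junctin of the sarcoplasmic reticulum, and the calcium pump inhibitors Sln (3.29) and Mrln (1.65). In trained muscle 2 were higher, Casq2 (1.81) and Mrln (1.76). Sln and Asph did not pass there, though their knockout means were higher as well. Vehicle and knockout trained means were 5.62 ± 4.30 and 18.3 ± 11.6 CPM for Sln and 224 ± 32.6 and 250 ± 21.5 CPM for Asph. Casq2 averaged 33.2 ± 3.12 CPM in vehicle sedentary, 94.3 ± 17.8 CPM in knockout sedentary, 20.2 ± 10.2 CPM in vehicle trained and 69.0 ± 8.83 CPM in knockout trained muscle. The list's median log2 change was 0.13 in sedentary and 0.40 in trained muscle.

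Among 9 genes of the sodium-potassium pump, Atp1b4, a muscle protein related to the pump's beta subunits, was higher in both states (1.34 and 1.55). The pump regulator Fxyd1 was higher in trained muscle (0.57). In sedentary muscle Fxyd1 did not pass, with means of 141 ± 5.83 CPM in vehicle and 160 ± 10.9 CPM in knockout samples. Of 16 tested channel partners (19 listed), Fgf11, a relative of the fibroblast growth factors that binds sodium channels, was higher in both states (2.32 and 2.21). The membrane anchors Ank1 (0.85) and Ank2 (1.196) passed as higher in trained muscle only. In sedentary muscle their knockout means were higher as well. Vehicle and knockout sedentary means were 412 ± 21.3 and 664 ± 35.2 CPM for Ank1 and 60.9 ± 4.78 and 112 ± 15.7 CPM for Ank2. At the endplate, where the nerve's signal becomes a muscle action potential, 3 of 10 tested genes were higher in both states: the acetylcholine receptor subunits Chrna1 (1.27 and 1.90) and Chrnb1 (1.36 and 1.24) and Colq, the collagen tail of acetylcholinesterase (1.15 and 1.43). Chrna1 was the one of 8 tested denervation markers that passed. The summed level of the 9 listed denervation markers was 97.2 to 119 CPM in vehicle sedentary and 147 to 184 CPM in knockout sedentary samples, without overlap, and the median log2 change of the 8 was 0.50. In trained muscle that median was -0.22, and the sum was 125 to 158 CPM in knockout samples and 99.8 to 111 CPM in vehicle samples other than library 2, which stood at 582 CPM. Without that library the trained median was 0.22. Of 21 tested channel genes outside the 4 families, Ano10 (-0.42), the mechanically gated Piezo1 (-0.68) and the mitochondrial porin Vdac1 (-0.69) were lower in sedentary muscle and Trpm7 (-0.72) was lower in trained muscle. None of them passed in the other training state, where the knockout mean was lower as well. Vehicle and knockout trained means were 26.7 ± 2.99 and 20.1 ± 1.93 CPM for Ano10 and 22.9 ± 2.11 and 14.3 ± 2.87 CPM for Piezo1. For Vdac1 they were 900 ± 174 and 774 ± 43.3 CPM. The sedentary means of Trpm7 were 96.7 ± 8.18 and 73.0 ± 6.49 CPM. Without library 2 the shares of all genes were 3.13% higher and 3.84% lower in sedentary muscle and 5.01% higher and 3.65% lower in trained muscle. The coupling list then had 4 genes higher in sedentary and 5 in trained muscle, the partner list had 3 higher and 1 lower in sedentary and 4 higher in trained muscle, and the denervation markers had 3 and 2 higher. The pump list had 1 higher in sedentary and 3 in trained muscle, and Fxyd1 was then also higher with training in knockout muscle (0.696% of all genes higher). The endplate list had 3 higher in sedentary and 4 in trained muscle. The other channels then had 5 lower in sedentary and 3 lower in trained muscle.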

How the data were processed

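The deposited table holds estimated counts per gene for 20 libraries, per the values (72.04% whole numbers, column totals that differ, no gene summing to under 10). RNA was extracted with Trizol and a column kit and sequenced from an Illumina library kit, per the labels' protocols. Partek, STAR 2.7.8a and DESeq2, and both the mm10 and GRCm39 builds, are named without a role in the submitters' processing notes. Quantifier, annotation and strandedness are not given in the sources used here.

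Counts were rounded to whole numbers. Of 190 pairs of libraries, 2 (knockout trained 1 and 4, 3 and 5) showed noise at high counts under 1.5 times that at low counts and were summed for tests and averaged for means. The 14361 genes with at least 1 CPM in at least 5 libraries were tested with edgeR 4.0.16 (R 4.3.3): TMM scaling, 4 group means, quasi-likelihood test, Benjamini-Hochberg adjustment over all tested genes in each of 5 contrasts, threshold 0.05. All tests were two-sided. SEs of log2 changes follow from the change and its F statistic. The script was tested on simulated data. The alternatives were DESeq2 1.42.0, limma-voom (limma 3.58.1), other scaling, no filter, separate libraries, a replicate block, only the groups compared, and each sample left out.

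The members and the lists were chosen with earlier results of these data known. Values in every sample are given for members past the threshold and for those of the surface, tubular, denervation and heart-clock lists. Named further are members past the threshold without vehicle trained library 2, the 10 highest per length, those nearest the level threshold and members of the other role lists. Partner genes are named where past the threshold. Some channel genes that these rules or lists hold enter the counts and medians but are not reported by name here.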

Additional observations from a re-analysis of the deposited data

Results flagged for a closer look

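In 5 genes a single value stood apart from the remaining 4 values of its group by Dixon's criterion, and in each it was vehicle trained library 2. Of 54 groups of values tested, chance alone would give about 2.7. Cacna1s was at 360.8 CPM there and at 560.4 to 617.6 CPM in the rest of the group. Kcna7 was at 21.1 CPM against 51.5 to 61.6 CPM, and Kcnc1 at 29 CPM against 70.9 to 87.7 CPM. Cacng1 and Kcnc4 lay the other way, at 675.3 CPM against 238.3 to 300.7 CPM and at 68.4 CPM against 41.8 to 48.1 CPM.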

How the results depend on the processing

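The 6 genes that passed kept their direction under every alternative run. In sedentary muscle the count of 4 channel genes was 10 with only the 2 groups compared in the fit, and 3 with limma-voom, which lost Cacna2d4. It ranged from 4 to 8 when samples were left out in turn, with 8 without vehicle trained library 2. In trained muscle the count of 4 was 8 with DESeq2 and 9 with the 20 libraries kept separate. It was 0 with only the 2 groups compared (smallest unadjusted p = 0.002, adjusted p = 0.2107), and 3 to 8 when samples were left out, with 8 without vehicle trained library 2. With a replicate block on the 20 separate libraries the counts were 9 in trained and 4 in sedentary muscle. Over 30 same-numbered pairs the deviations from group means correlated at r = -0.395 to 0.347 (median 0.028), and 11 exceeded 0.1. Over the 120 other pairs r was -0.452 to 0.434 (median -0.016), so the replicate numbers showed no clear pairing of samples. The training and interaction counts were 0 channel genes under every alternative run. Over all genes, the sedentary count of 334 was 1001 without that library and 1178 with only the 2 groups compared. The trained count of 473 was 1244 without that library, 1225 with separate libraries, 980 with the block, 907 with DESeq2, 20 with only the 2 groups compared and 177 without knockout trained pair 3 and 5. DESeq2 called 15 genes for training in vehicle muscle, 198 in knockout muscle and 26 for the interaction, where edgeR called 0. The causes of these shifts were not tested.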
